A study of Mus musculus with 18 samples.

Results

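The 42 genes described here encode the machinery that copies DNA in S phase: factors that license origins, the MCM helicase and its activators, polymerases, the sliding clamp and its loader, single-strand binding proteins, nucleotide synthesis enzymes, cyclin E and a fork protection factor. They were chosen by name, without reference to a measured value in the rule, and each was present in all 18 libraries, among 49395 gene symbols at P14 and 55184 at P18. The libraries are poly(A) RNA profiles of male C57BL/6J mice, 3 in each of 6 groups, labelled as biological replicates. The knockout groups (KO, Zfp541-/-) are P14 testicular cells, P18 testicular cells and P18 spermatocytes, where P14 and P18 are postnatal days 14 and 18. The heterozygous groups (Het, Zfp541+/-) are the same 3 tissues, so every control carries 1 mutant Zfp541 allele and wild-type mice are not analysed here. The sources used here do not say how the spermatocytes were isolated, how the mutation was made, or whether 1 library stands for 1 mouse.

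Replication starts when the origin recognition complex (ORC), with CDC6 and CDT1, loads the MCM2-7 ring onto DNA, a step blocked by geminin. CDC45 and the GINS complex then turn the ring into an active helicase, after which primase and the polymerases copy the strands, held by the PCNA clamp that the RFC complex loads. In the testis, spermatogonia replicate before each mitosis and preleptotene spermatocytes replicate once more before meiosis, while spermatocytes in later meiotic prophase, including pachytene, do no bulk replication. In the first wave of mouse spermatogenesis the share of cells in meiotic prophase grows with age over these days. Zfp541 encodes a zinc finger protein of the germ line.

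Total depth, read back from the deposited values, was 17.96 to 21.12 megareads at P14, 12.81 to 16.95 megareads in P18 testis and 9.26 to 18.31 megareads in spermatocytes. Between 103 reads (Tyms, in a spermatocyte library) and 5655 reads (Pole, in a spermatocyte library) lay behind a member's value. A level below is the authors' RPKM (P14 testis, spermatocytes) or FPKM (P18 testis), both scaled by gene length and library depth, then rescaled between libraries. Zfp541 itself had levels of 13.5, 12.0 and 11.9 in KO spermatocytes, against 39.6, 32.9 and 54.8 in Het spermatocytes, a log2 difference, KO minus Het, of -1.70 ± 0.18 (SE, adjusted p = 0.000655), and its transcript was still detected in every KO library. In P14 testis its difference was -1.02 ± 0.15, with an adjusted p of 0.077, above the threshold of 0.05 used throughout. In P18 testis it was -1.25 ± 0.14 (adjusted p = 0.0049). Spermatocytes had summed Sertoli marker levels of 57.4 to 108 in KO and 71.1 to 125 in Het, against 2312 to 2353 in P18 KO testis and 1725 to 2117 in P18 Het testis (16 genes). Leydig markers (9 genes) summed to at most 6.72 in any spermatocyte library, with Hsd3b1, Hsd3b6 and Lhcgr at 0 in at least 1 library of each genotype, and 4 of 5 erythroid markers were likewise at 0. Peritubular myoid markers (6 genes) summed to 57.4 to 205 in KO spermatocytes and 67.2 to 191 in Het spermatocytes, as against 120 to 159 in P18 KO testis and 113 to 142 in P18 Het testis. Endothelial markers (6 genes) summed to 1.19 to 1.55 in KO spermatocytes and 1.49 to 1.81 in Het spermatocytes, and macrophage markers (8 genes) to 13 to 14 in KO and 6.17 to 12.3 in Het spermatocytes. Spermatogonial and preleptotene markers (14 genes, such as Kit, Stra8 and Zbtb16) were present in the fraction labelled spermatocytes, summing to 661 to 747 in KO and 376 to 539 in Het. Het spermatocyte library 3 stood apart: it had the lowest sum of these markers (376) and the highest sum of 16 pachytene markers (3157, against 1802 and 1571 in the other Het libraries). In bulk RNA, fewer cells of a type and less RNA per cell cannot be told apart.

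At P14, none of the 42 genes passed the threshold between KO and Het testis. By limma with Benjamini-Hochberg adjustment over all genes, 0 members were higher and 0 were lower, where 0.0113% and 0.153% of 17688 genes were. At an unadjusted p under 0.05, 2 members (4.76%) were higher and 2 (4.76%) lower, where 3.09% and 5.96% of all genes were, and voom on the reads read back also called 0 members. Log2 differences, KO minus Het, ran from -0.28 (Gins1, a GINS subunit) to 0.22 (Cdt1), with a median of 0.03, against 0.01 over all genes. After Cdt1 (0.22 ± 0.10) the highest were Pold1, the catalytic subunit of polymerase delta (0.17 ± 0.08), and Mcm2 of the helicase ring (0.16 ± 0.05). After Gins1 (-0.28 ± 0.08) the lowest were Orc4 (-0.17 ± 0.08), and Orc5 and the cyclin gene Ccne2 (-0.14 each). The smallest adjusted p was 0.32, for Gins1, whose levels were 7.77, 7.50 and 8.63 in KO against 10.2, 8.93 and 10.3 in Het. Those Gins1 levels did not overlap. The KO libraries were all above the Het libraries for 9 members (7.54% of all genes) and all below for 5 (8.31% of all genes).

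At P18, 7 members (16.7%) rose and 3 (7.14%) fell in KO whole testis, where 5.83% of 18786 genes were higher and 17.2% were lower. The genes that rose were Mcm2, Mcm4 and Mcm6 of the helicase ring, Prim1 (the catalytic primase subunit), Pole (the catalytic subunit of polymerase epsilon), Rpa3 (the smallest subunit of the single-strand binding protein RPA) and Rrm2 (the small subunit of ribonucleotide reductase, which makes deoxyribonucleotides). Mcm7, Gins1 and Rfc2 (a clamp loader subunit) fell. The median log2 difference of the 42 was 0.15, against 0.02 over all genes. KO libraries were all above Het libraries for 19 members (21.9% of all genes) and all below for 9 (26.2% of all genes).

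This count moved when 1 library was left out, as did the count over all genes, and such fits also have fewer replicates. Without KO library 1, 2 or 3, the members higher and lower numbered 4 and 1, 1 and 1, and 0 and 0. Without Het library 1, 2 or 3 they numbered 4 and 3, 1 and 0, and 7 and 5. With every library, 1096 of 18786 genes were higher and 3233 lower. Over all genes the fits without KO library 1, 2 or 3 called 234, 78 and 78 higher, and 1704, 1504 and 1461 lower. Those without Het library 1, 2 or 3 called 451, 100 and 1286 higher, and 2102, 849 and 3130 lower. Every one of the 10 members kept its direction in all of these fits. The call was kept in 3 of the 6 fits by Mcm2, Mcm4, Gins1 and Rpa3, in 2 by Mcm7 and Rfc2, in 1 by Mcm6, Prim1 and Rrm2, and in 0 by Pole. The count also moved with the processing. Members higher numbered 14 on the values as deposited, whose median over all genes was 0.12. They numbered 14 with voom and 12 in 1 fit over all 18 libraries. With no filter and with the replicate number as a block they numbered 3 each, and the block called 1 lower. Over all genes the higher numbered 2473 of 18786 as deposited, 1874 of 18059 with voom and 1020 of 19849 in the 1 fit. They were 375 of 39372 with no filter and 478 of 18786 with the block, which called 2362 lower. Pachytene marker sums were 219 to 235 in KO libraries and 1734, 1148 and 781 in Het libraries 1, 2 and 3, and the part of that marker difference in the count was not tested.

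In spermatocytes 17 members (40.5%) rose and 3 (7.14%) fell in KO, where 12.7% of 15960 genes were higher and 24.9% were lower. Rises covered 3 of 9 origin and licensing genes, 5 of 6 MCM subunits, Pold1, the loader subunit Rfc5, both Okazaki fragment genes, Rpa2, Rrm2 and Tyms, and Ccne1 and Tipin. Gins1, Rfc2 and Rpa1 fell. The median of the 42 was 0.31, against 0.00 over all genes. KO libraries were all above Het libraries for 21 members (24.3% of all genes) and all below for 6 (31.2% of all genes). Without KO library 2 the members higher and lower numbered 9 and 3, and without Het library 1 or 2 they numbered 10 and 2, and 11 and 5. Over all genes those fits called 662, 1017 and 1469 higher and 3099, 2357 and 3764 lower, of 15474, 14959 and 14797 tested. With every library, 2031 of 15960 genes were higher and 3980 lower. Leaving out Het library 3, the one that stood apart, left 14 members higher and 3 lower. Over all genes that fit called 1521 higher and 2790 lower of 15062. None of the 20 changed direction under any scaling or left-out library.

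**Figure D1:**
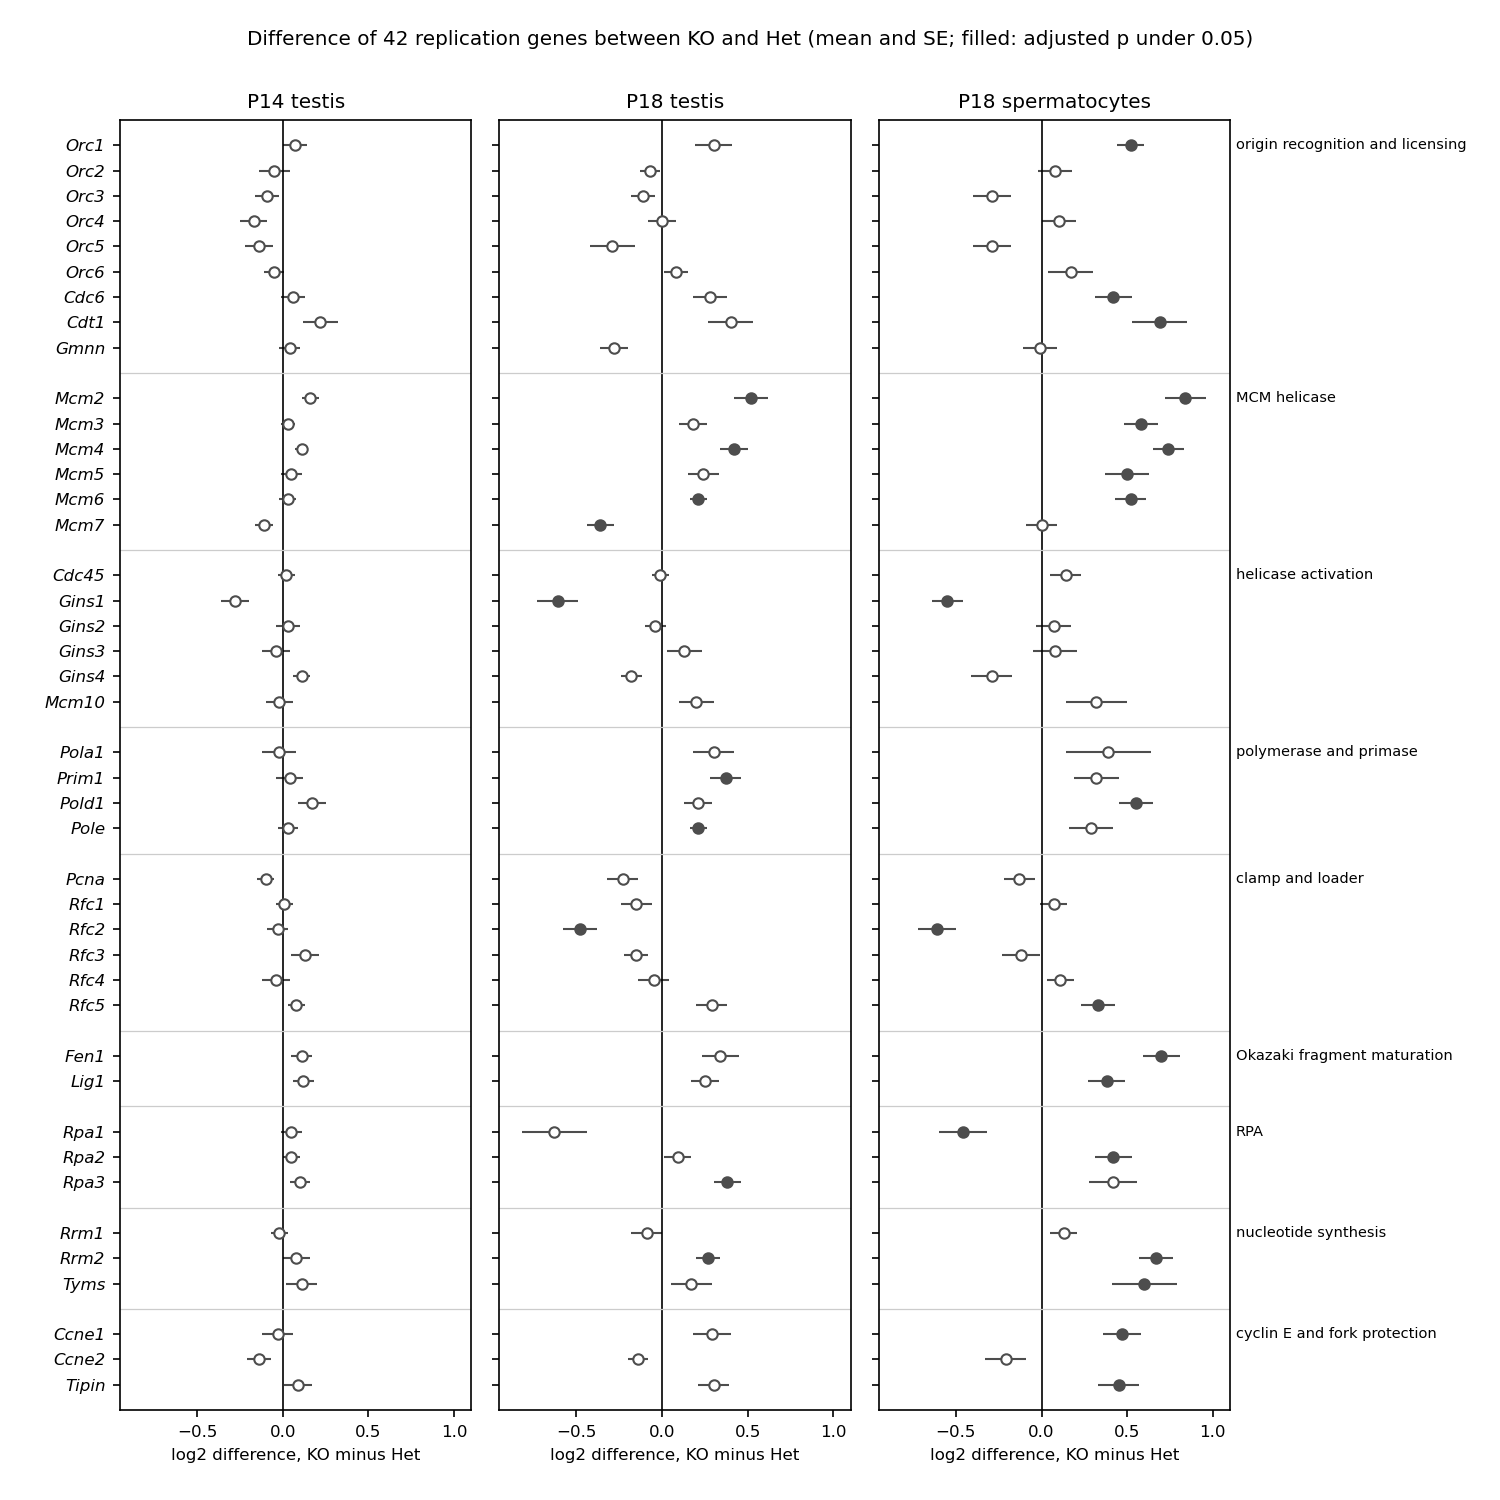
Log2 difference, KO minus Het, of the 42 genes by role in P14 testis, P18 testis and P18 spermatocytes. Points are limma estimates, bars are SE, and filled points have an adjusted p under 0.05. No point is filled at P14, 10 are filled in P18 testis and 20 in spermatocytes.

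Of the 9 origin and licensing genes, Orc1, Cdt1 and Cdc6 rose in KO spermatocytes and the other 6 did not pass the threshold. ORC1 is the ORC subunit whose amount is regulated through the cell cycle in mammalian cells, and its transcript had levels of 15.1, 16.0 and 15.5 in KO spermatocytes, against 11, 10.9 and 10 in Het spermatocytes. The groups did not overlap, and the log2 difference was 0.52 ± 0.08 (adjusted p = 0.00343). Cdt1 had 16.8, 16.0 and 15.1 in KO spermatocytes, against 9.43, 12.2 and 7.88 in Het spermatocytes (0.69 ± 0.16, adjusted p = 0.0135). Cdc6, at 6.02 ± 0.23 in KO and 4.38 ± 0.14 in Het (SD, n = 3), rose by 0.42 ± 0.11 (adjusted p = 0.0204). None of these passed the threshold in P18 testis, where Cdt1 had 6.18, 7.27 and 6.79 in KO, against 4.16, 5.21 and 5.73 in Het (0.40 ± 0.13, adjusted p = 0.0677). The adjusted p there was 0.0872 for Orc1 and 0.0836 for Cdc6. The Cdc6 call in spermatocytes was kept without 1 of the 6 libraries and lost without any of the other 5. Orc2 to Orc6 did not pass the threshold in either P18 comparison: in spermatocytes their log2 differences ran from -0.29 (Orc3 and Orc5) to 0.17 (Orc6). Gmnn encodes geminin, the inhibitor of CDT1. Its levels in spermatocytes were 41.1, 39.2 and 36.7 in KO and 38.2, 36.4 and 43.4 in Het, a difference of -0.01 with a 95% interval of -0.23 to 0.22, and in P18 testis its difference was -0.28 ± 0.08 (adjusted p = 0.0566).

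The MCM ring needs 1 copy of each of 6 subunits, and the transcripts of 5 of them rose in KO spermatocytes. Mcm2 (chr6:88883474-88898780, minus strand; gene coordinates are GRCm38, from GENCODE M21) rose most of the 42 in both P18 sets. Its levels were 35.5, 39.5 and 37.7 in KO spermatocytes, against 22.1, 23.0 and 17.6 in Het spermatocytes, a log2 difference of 0.84 ± 0.12 (adjusted p = 0.00188). In P18 testis they were 12.6, 14.2 and 14.4 in KO, against 8.20, 10.1 and 10 in Het (0.52 ± 0.10, adjusted p = 0.0173). All KO libraries were above all Het libraries in both sets.

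Mcm4 (chr16:15623897-15637400) had 41.3, 41.8 and 42.1 in KO spermatocytes, against 27.0, 25.1 and 22.3 in Het spermatocytes (0.74 ± 0.09, adjusted p = 0.00112). Its P18 testis levels were 18.3, 20.4 and 19.0 in KO, against 13.2, 14.1 and 15.6 in Het (0.42 ± 0.08, adjusted p = 0.0176). Mcm6 (chr1:128331590-128359664) had 46.4, 45.0 and 44.6 in KO spermatocytes, against 33.7, 32.4 and 28.5 in Het spermatocytes (0.52 ± 0.09, adjusted p = 0.00431). Both genes thus had non-overlapping groups in spermatocytes. In P18 testis Mcm6 had 20.9, 21.3 and 21.3 in KO, against 18.4, 18.3 and 18.1 in Het (0.21 ± 0.05, adjusted p = 0.0284), a small difference over a narrow spread. Mcm3 had 56.5, 56 and 56.3 in KO spermatocytes, against 38.6, 41 and 33.1 in Het spermatocytes (0.58 ± 0.10, adjusted p = 0.00383). Mcm5 had 81.9, 71.6 and 70.7 in KO spermatocytes, against 59.7, 55 and 44.6 in Het spermatocytes (0.50 ± 0.13, adjusted p = 0.0201). Both were thus higher in KO without overlap there. In P18 testis Mcm3 had a difference of 0.18 ± 0.08 and Mcm5 one of 0.24 ± 0.09, and neither passed the threshold (adjusted p = 0.152 for Mcm3 and 0.0941 for Mcm5). The Mcm5 call in spermatocytes was kept in 3 of the 6 fits that left out 1 library.

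Mcm7 did not rise in either P18 set. It fell in P18 testis, to 26.2, 31.1 and 27.8 in KO, against 38.7, 34.1 and 36.6 in Het (-0.36 ± 0.08, adjusted p = 0.0286). In spermatocytes its levels were 45.1, 47.2 and 44.0 in KO and 44.6, 42.3 and 49.4 in Het, which overlap (0.00 ± 0.09, 95% interval -0.20 to 0.21). By level per length, the order of the subunits in KO spermatocytes ran Mcm5 (74.7 ± 6.19, SD), Mcm3 (56.2 ± 0.26), Mcm7 (45.5 ± 1.63), Mcm6 (45.3 ± 0.94), Mcm4 (41.8 ± 0.45) and Mcm2 (37.6 ± 2.00). In Het spermatocytes it ran Mcm5 (53.1 ± 7.75), Mcm7 (45.4 ± 3.61), Mcm3 (37.6 ± 4.01), Mcm6 (31.5 ± 2.70), Mcm4 (24.8 ± 2.36) and Mcm2 (20.9 ± 2.88). Among neighbours in this order, the libraries of Mcm7 and Mcm6 overlapped in KO. In Het those of Mcm5 and Mcm7, of Mcm3 and Mcm6, and of Mcm4 and Mcm2 overlapped. The summed level of the 6 subunits was 307, 301 and 295 in KO spermatocytes, against 226, 219 and 196 in Het spermatocytes.

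**Figure D2:**
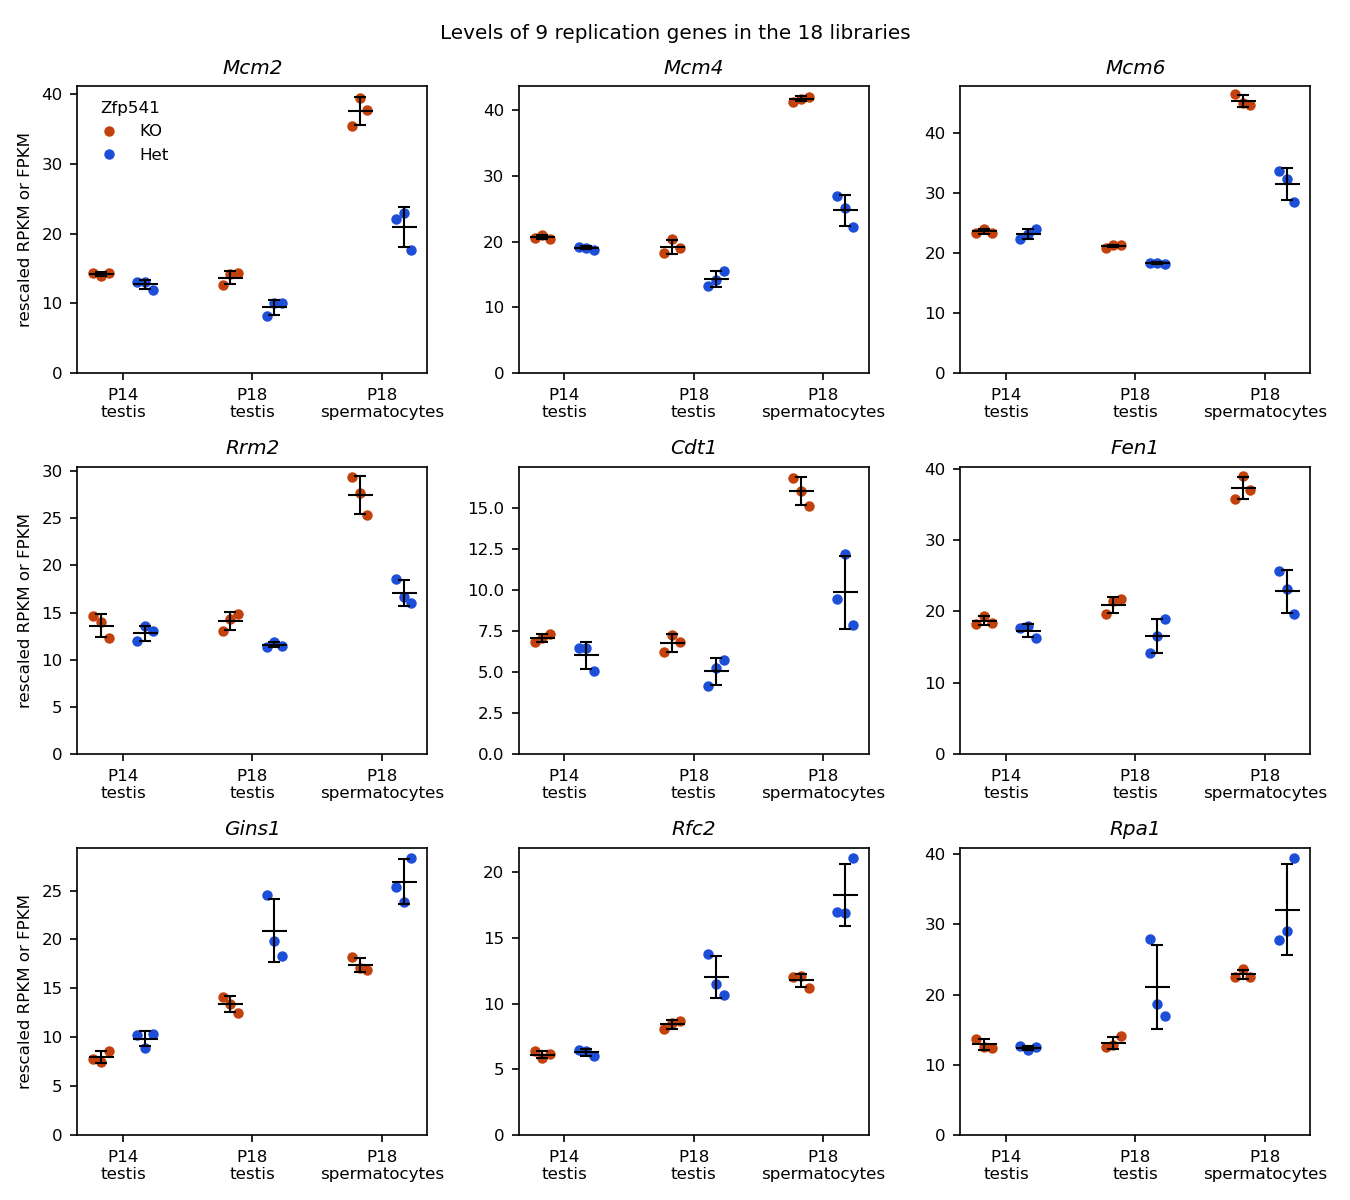
Levels (rescaled RPKM or FPKM, axis from 0) of 9 genes in every library, KO left of Het in each set; points are libraries, black bars the mean and SD of 3. Mcm2, Mcm4, Mcm6, Rrm2, Cdt1 and Fen1 were higher in all KO spermatocyte libraries than in any Het one, and Gins1, Rfc2 and Rpa1 were lower.

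Many licensing and MCM genes are known targets of E2F transcription factors, which switch on S phase genes. RefSeq promoters (GRCm38.p6) were at hand for 33 of the 42 genes. An E2F motif (TTTCCCGC, TTTGGCGC, TTTCGCGC or TTTGCCGC, on either strand) lay in the 250 bases upstream of the start of 9 of these 33 (27.3%), against 2.16% of 27025 genes. The CCAAT box (CCAAT, on either strand) was in 22 of 33 (66.7%), against 37.5% of genes. Of the 15 members in the table that rose in KO spermatocytes, 4 held the E2F motif (Orc1, Cdc6, Mcm5 and Mcm6). So did 5 of the 17 that did not pass (Orc3, Mcm7, Gins3, Pola1 and Rfc3). Of the members that fell, Rpa1 was in the table, without the motif. A match is a description and not a binding site. The Orc1, Cdc6 and Mcm7 genes start upstream of the RefSeq starts in GENCODE M21, so the Orc1 stretch reaches into that gene and the Cdc6 and Mcm7 stretches lie within theirs, the Mcm7 one wholly in annotated exon. The upstream sequences below carry the motif in capitals, read 5′ to 3′ on the gene's own strand. Mcm5 and Mcm6 are shown whole as ring genes that rose and hold 2 and 3 motifs, some overlapping, Cdc6 and Orc1 as licensing genes that rose, and Mcm7 as the ring gene that did not.
Mcm5, chr8:75109259-75109508, plus strand: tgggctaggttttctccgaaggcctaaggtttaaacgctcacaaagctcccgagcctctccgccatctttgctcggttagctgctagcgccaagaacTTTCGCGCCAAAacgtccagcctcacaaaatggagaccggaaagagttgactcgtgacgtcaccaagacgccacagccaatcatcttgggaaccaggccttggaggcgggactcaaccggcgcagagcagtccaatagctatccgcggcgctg
Mcm6, chr1:128359706-128359955, minus strand: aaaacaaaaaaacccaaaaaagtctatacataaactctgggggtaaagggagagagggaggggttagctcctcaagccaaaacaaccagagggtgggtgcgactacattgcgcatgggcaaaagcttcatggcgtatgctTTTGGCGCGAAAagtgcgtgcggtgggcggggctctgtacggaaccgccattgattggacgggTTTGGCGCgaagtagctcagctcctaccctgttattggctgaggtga
Cdc6, chr11:98907989-98908044, plus strand: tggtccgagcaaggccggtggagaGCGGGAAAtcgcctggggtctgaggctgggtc
Orc1, chr4:108579416-108579445, plus strand: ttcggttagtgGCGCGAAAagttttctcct
Mcm7, chr5:138172030-138172059, minus strand: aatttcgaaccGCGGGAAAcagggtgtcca

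Of the 6 helicase activation genes, Gins1 passed the threshold at P18 and the other 5 did not. Gins1 (chr2:150905400-150931280) had levels of 18.2, 17.1 and 16.9 in KO spermatocytes, against 25.4, 23.8 and 28.3 in Het spermatocytes (-0.55 ± 0.09, adjusted p = 0.00402). In P18 testis it had 14.1, 13.4 and 12.5 in KO, against 24.5, 19.8 and 18.3 in Het (-0.61 ± 0.12, adjusted p = 0.0162). It was below Het in every KO library of all 3 sets. The other GINS genes, whose products form 1 complex with GINS1, did not pass the threshold: in spermatocytes Gins2 had 0.07 ± 0.10, Gins3 0.08 ± 0.13 and Gins4 -0.29 ± 0.12 (adjusted p = 0.0926). Cdc45 had 0.14 ± 0.09 and Mcm10, which helps switch the helicase on, 0.32 ± 0.18.

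Among polymerase genes, Pold1 rose in KO spermatocytes, with levels of 49.3, 51.4 and 53.0 against 37.3, 37.3 and 30.5 in Het spermatocytes (0.55 ± 0.10, adjusted p = 0.00626). Prim1 had 8.55, 8.75 and 9.36 in KO P18 testis, against 6.48, 7.51 and 6.33 in Het P18 testis (0.37 ± 0.09, adjusted p = 0.0281). Pole had 14.7, 15.9 and 15.5 in KO P18 testis, against 13.3, 13.4 and 13.1 in Het P18 testis (0.21 ± 0.05, adjusted p = 0.0399). Neither gene's groups overlapped there. Their spermatocyte differences were 0.32 ± 0.13 and 0.29 ± 0.13, and neither passed (adjusted p = 0.0976 for Prim1 and 0.129 for Pole). Pola1, the catalytic subunit of polymerase alpha, was low in every group and did not pass in either set (0.30 ± 0.12 in P18 testis and 0.39 ± 0.25 in spermatocytes).

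Of the clamp and clamp loader genes, Rfc2 fell and Rfc5 rose in KO spermatocytes. Pcna had the highest level of the 42 in both whole-testis sets and in Het spermatocytes, and it did not pass the threshold: 49.9 ± 3.11 in KO and 54.9 ± 3.85 in Het spermatocytes (SD, n = 3), a log2 difference of -0.13 with a 95% interval of -0.34 to 0.07. Rfc2 (chr5:134581366-134601805) had 12.0, 12.1 and 11.2 in KO spermatocytes, against 17, 16.9 and 21.1 in Het spermatocytes (-0.61 ± 0.11, adjusted p = 0.00547). In P18 testis it had 8.07, 8.52 and 8.70 in KO, against 13.8, 11.5 and 10.7 in Het (-0.48 ± 0.10, adjusted p = 0.0218). Rfc2 was thus lower in KO without overlap in both P18 sets. Its partner Rfc5 rose in spermatocytes, to 9.27 ± 0.27 in KO against 7.31 ± 0.62 in Het (0.33 ± 0.10, adjusted p = 0.0412), a call that was lost on leaving out any 1 of the 6 libraries. Rfc1, Rfc3 and Rfc4 lay between -0.12 and 0.11 and did not pass.

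Both Okazaki fragment genes rose in KO spermatocytes. Fen1 encodes the flap endonuclease that trims the fragments, and it had levels of 35.8, 39.0 and 37.0 in KO spermatocytes, against 25.7, 23.1 and 19.7 in Het spermatocytes (0.70 ± 0.11, adjusted p = 0.00322). Lig1, the ligase that seals them, had 61.7 ± 6.51 in KO and 47.3 ± 4.12 in Het (0.38 ± 0.11, adjusted p = 0.0292), and its call was also lost on leaving out any 1 library. In P18 testis Fen1 had 0.34 ± 0.11 (adjusted p = 0.0687) and Lig1 0.25 ± 0.08 (adjusted p = 0.0571). Of Fen1's exon bases, 84.2% lie under exons of Gm10143 and Tmem258 on the opposite strand. Tmem258 had the opposite sign: it fell in P18 testis (-0.37 ± 0.08, adjusted p = 0.0193), and its spermatocyte difference of -0.32 ± 0.12 did not pass (adjusted p = 0.0659). The strand setting of the counting is not given in the sources used here, so reads of such pairs cannot be told apart. The same holds for genes such as Gins2 (67.3% under Gse1), Orc2 (29.8% under Nif3l1) and Ccne2 (17.4% under Ints8). It also holds for Rfc2 (15.1% under Lat2) and Mcm7 (12.6%, under Ap4m1 and Cops6, and Mir25 and Mir93 on its own strand). Lat2 had levels of 1.01 ± 0.18 in KO and 1.87 ± 0.46 in Het spermatocytes and log2 differences of -0.78 ± 0.30 in P18 testis and -0.64 ± 0.21 in spermatocytes, the direction of Rfc2. Of Pcna's 50-base words, 19.1% also occur in the pseudogene Pcna-ps2. Of Mcm7's, 23.3% occur in other genes, Gm5487 and Ap4m1 among them.

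Of the RPA genes, Rpa1 fell and Rpa2 rose in KO spermatocytes. Rpa1, the large subunit, had 22.5, 23.6 and 22.5 in KO spermatocytes, against 27.7, 29.0 and 39.5 in Het spermatocytes (-0.46 ± 0.14, adjusted p = 0.0380). The call held without 2 of the 6 libraries and was lost without any 1 of the other 4. In P18 testis Rpa1 had 12.5, 12.8 and 14.1 in KO, against 27.9, 18.6 and 16.9 in Het, which gave the lowest log2 difference of the 42 (-0.63 ± 0.19) and an adjusted p of 0.055. Rpa2 rose in spermatocytes (0.42 ± 0.11, adjusted p = 0.0217), with 0.09 ± 0.08 in P18 testis, and its call was kept in 3 of the 6 fits that left out 1 library. Rpa3 had 18.1, 16.3 and 18.1 in KO P18 testis, against 12.2, 13.6 and 14.2 in Het P18 testis (0.38 ± 0.08, adjusted p = 0.0217). Its spermatocyte difference was 0.42 ± 0.14 (adjusted p = 0.0508).

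Rrm2 (chr12:24708241-24714146) had 29.4, 27.7 and 25.4 in KO spermatocytes, against 18.6, 16.6 and 16.0 in Het spermatocytes (0.67 ± 0.10, adjusted p = 0.00217). In P18 testis it had 13.0, 14.3 and 14.8 in KO, against 11.4, 11.9 and 11.5 in Het (0.27 ± 0.07, adjusted p = 0.0338), again without overlap. The large subunit of the same enzyme, Rrm1, had 0.13 ± 0.08 in spermatocytes and -0.09 ± 0.09 in P18 testis. Tyms, thymidylate synthase, was a low transcript that rose in spermatocytes, at 2.56 ± 0.41 in KO and 1.52 ± 0.31 in Het (0.60 ± 0.19, adjusted p = 0.0421). Of the cyclin E genes, which drive entry into S phase, Ccne1 rose in spermatocytes, to 9.29 ± 0.96 in KO against 6.56 ± 0.24 in Het (0.47 ± 0.11, adjusted p = 0.0147), while Ccne2 had -0.21 ± 0.12 and did not pass. Tipin, which acts with Timeless to protect forks, had 52.3 ± 5.07 in KO and 38.2 ± 5.05 in Het spermatocytes (0.45 ± 0.12, adjusted p = 0.0261). On leaving out 1 library at a time, the calls of Tyms and Ccne1 were kept in 2 of 6 fits each and that of Tipin in 1.

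Spermatocytes and whole testis at P18 were sequenced as separate libraries, so their KO minus Het differences share no library. Mcm2, Mcm4, Mcm6 and Rrm2 rose in both, Gins1 and Rfc2 fell in both, and 0 members were called in opposite directions. 18 members were called in neither. The same counts were not made over all genes, so they do not set the members apart from other genes. Across the 42 genes the 2 sets of differences had Pearson's r = 0.92 and Spearman's rho = 0.87, and 35 of 42 (83.3%) had the same sign. Over all 15218 genes tested in both, r was 0.90 and 81.3% had the same sign, so the members were close to the background here. Genes within a library are not independent replicates, and the labels do not say whether both kinds of library came from the same mice.

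**Figure D3:**
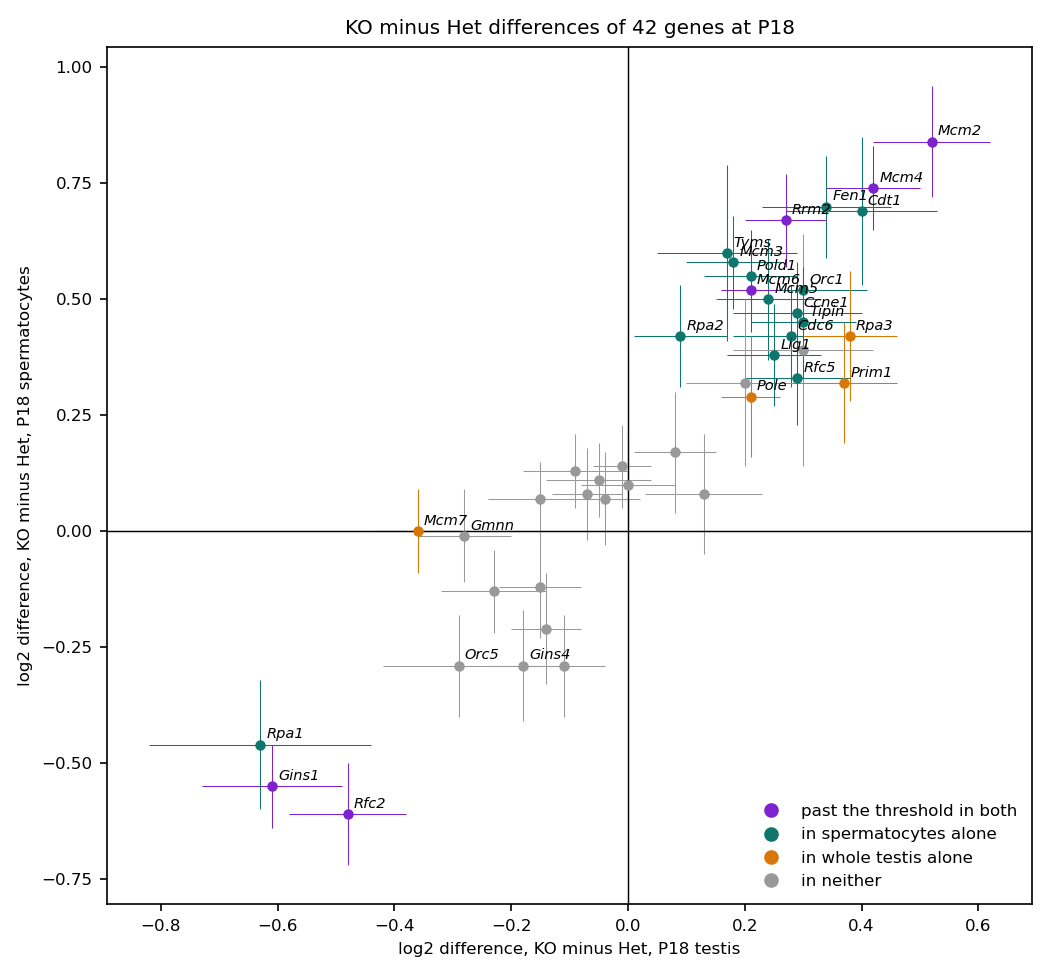
Log2 difference, KO minus Het, of each of the 42 genes in P18 testis (x axis) and in P18 spermatocytes (y axis), with SE bars; colours give where the adjusted p was under 0.05. Mcm2 lies at the top right (0.52 and 0.84), Rpa1, Gins1 and Rfc2 at the bottom left.

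Whether the genotype difference itself differed between spermatocytes and whole testis was tested as an interaction. No member passed: 0 were higher and 0 lower, where 0.0651% and 1.24% of 19979 genes were, by limma on 12 libraries. At an unadjusted p under 0.05, 2 members (4.76%) had a positive interaction (the KO minus Het difference higher in spermatocytes) and 0 a negative one, where 2.2% and 13.2% of all genes did, and voom called 0. Rrm2 had the smallest p, with an interaction of 0.30 ± 0.12 and an adjusted p of 0.254. The median interaction was 0.05 for the members and -0.10 over all genes, and 66.7% of members were above 0, against 37.4% of genes. One fit over all 18 libraries called 7 members with a positive interaction and 0 with a negative one, where 3.26% and 1.57% of 19849 genes were called. In that fit the median over all genes was 0.08. Members called in spermatocytes and not in whole testis are therefore not shown to differ between the 2 sets by the 12-library fit.

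With age, 21 of these genes fell and 8 rose in Het testis. The P18 testis values are FPKM and the P14 values RPKM, from tables normalized separately, so unit and table cannot be told apart from age. Cdc45 and Rfc4 had a different gene length in the P14 values and were left out of this comparison, which leaves 40 members. The background in Het was 29.6% of 15809 genes higher and 31.9% lower at P18 than at P14, and the members had a median log2 difference of -0.22 against 0.01 over all genes. On the values as deposited, whose median over all genes moved to 0.20, the same Het comparison had 11 higher and 7 lower (background 40.1% and 20.7%). Between 4 and 6 members were higher without any 1 of P14 KO libraries 2 and 3, P14 Het libraries 1 to 3 and P18 Het libraries 1 and 2. Those fits called 3707 to 4433 of all genes higher, against 4674 of 15809 with every library. In KO, 2 were higher and 12 lower (background 18.1% and 25.1%), with a median of -0.12, and 21 were higher and 0 lower on the values as deposited, where the median over all genes moved to 0.30 and the background to 47.8% higher and 13.4% lower. Without P14 KO library 1, 2 or 3 the members lower in KO numbered 6, 8 and 8, and without P18 KO library 1 they numbered 7. The same fits called 3270, 3368, 3499 and 3493 of all genes lower, against 3962 with every library. Members higher in KO numbered 1 without P14 KO library 2 or P18 KO library 1, and 5 without P18 Het library 1. All genes higher in these fits numbered 2196, 2240 and 3141, against 2854 with every library.

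Mcm6 had the smallest p with age in Het: on a scale common to both ages its levels were 17, 16.7 and 16.4 at P18, against 24.4, 25.4 and 25.9 at P14 (-0.58 ± 0.04, adjusted p = 3.92e-07). In KO they were 19.1, 19.4 and 19.5 at P18, against 25.5, 26.5 and 25.8 at P14 (-0.42 ± 0.04, adjusted p = 8.72e-06). Mcm2 and Mcm4 each fell by 0.66 in Het, and Pola1 fell by 0.78 ± 0.09. These 4 genes were also lower on the values as deposited, at -0.38 for Mcm6, -0.46 each for Mcm2 and Mcm4 and -0.62 for Pola1. In KO the age difference was -0.31 ± 0.08 for Mcm2, -0.36 ± 0.06 for Mcm4 and -0.48 ± 0.09 for Pola1. The genes higher at P18 in Het were Gins1 (0.79 ± 0.11), Rfc2 (0.63 ± 0.09), Orc5 and Rpa1 (0.46 each), Gmnn (0.21), Mcm7 and Rfc3 (0.19 each) and Gins4 (0.18). Gins1 was also higher at P18 in KO (0.46 ± 0.11), whereas Rfc2 (0.18 ± 0.09) and Rpa1 (-0.23 ± 0.15) did not pass there.

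The age difference in Het testis and the genotype difference in spermatocytes share no library. Of the 21 members lower at P18 than at P14 in Het testis, 14 rose and 0 fell in KO spermatocytes, and all 21 had a difference above 0. Of all 3113 genes lower with age in Het testis and tested in both, 30.5% rose and 2.18% fell in KO spermatocytes, and 84.1% had a difference above 0. Of the 8 that were higher at P18 in Het testis, 0 rose and 3 fell (Gins1, Rfc2 and Rpa1), and 7 had a difference below 0, where 2.15% of the 4229 such genes rose, 57.3% fell and 84.3% were below 0. The 2 differences had the same sign in 4 of the 40 members and in 25.1% of all genes. Across the 40 genes the 2 differences had r = -0.85 (rho = -0.79), against r = -0.67 over all 11672 genes tested in both.

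Whether the age change differed by genotype was tested as an interaction in whole testis. By limma 0 members had a positive and 1 a negative interaction, where 0.354% and 5.68% of genes did, and at an unadjusted p under 0.05 there were 7 (17.5%) and 7 (17.5%), where 6.3% and 16.0% of all genes passed. The member was Gins4 (chr8:23226616-23237659), at -0.30 ± 0.07 (adjusted p = 0.0382). Its levels at P18 were 19.5, 20.1 and 18.2 in KO, against 22.6, 21.2 and 21.9 in Het. At P14 they were 21.8, 21 and 20.4 in KO, against 18.9, 20.2 and 18.9 in Het. KO libraries were thus all below Het at P18 and all above Het at P14. The call was lost without any 1 library except P18 Het library 3, and Mcm2 (0.35 ± 0.11), Mcm4 (0.30 ± 0.08), Rfc2 (-0.45 ± 0.12) and Rpa1 (-0.69 ± 0.21) did not pass. Without P18 Het library 3 the interaction called 1 member higher and 4 lower, Gins4 among them. That fit also called more of all genes, 225 higher and 1489 lower of 15322. With every library 56 were higher and 898 lower of 15809.

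**Figure D4:**
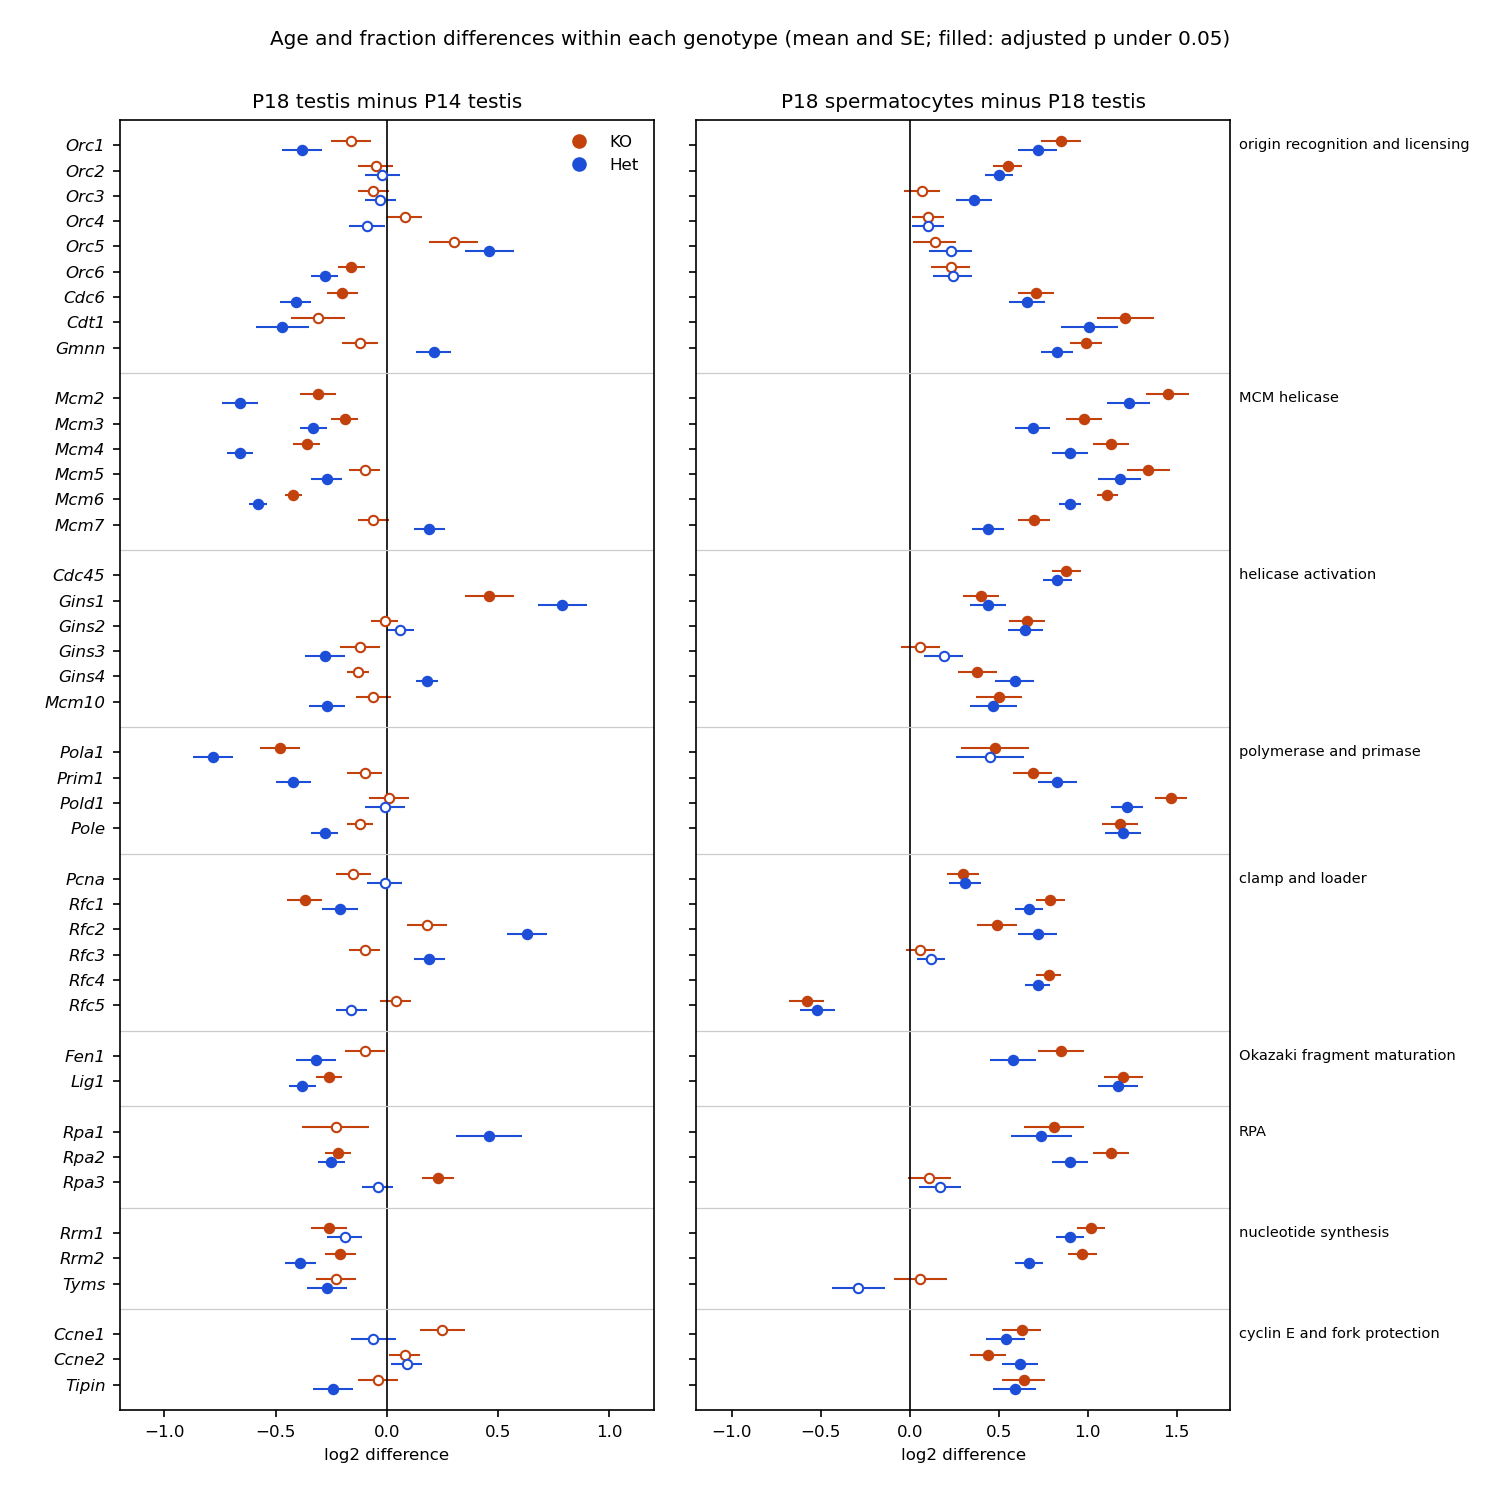
Log2 differences with SE bars for P18 minus P14 testis (left, 40 genes) and P18 spermatocytes minus P18 testis (right, 42 genes), KO drawn above Het; filled points have an adjusted p under 0.05. Most MCM genes lie left of 0 with age (Mcm3 in KO, at -0.19, is at 0.13 on the values as deposited, where the median over all genes is 0.30), and 33 genes in each genotype are higher in spermatocytes.

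Spermatocytes carried higher levels of most of these genes than whole testis in either genotype. In KO 33 members were higher and 1 lower (background 22.8% and 38.8%), with a median log2 difference of 0.70 against -0.24 over all genes. In Het 33 were higher and 1 lower (background 27.0% and 31.8%), with a median of 0.66 against -0.05. Pold1 had levels of 51.0, 53.0 and 55.8 in KO spermatocytes, against 16.9, 20.4 and 19.6 in KO testis (1.47 ± 0.09, adjusted p = 2.18e-07), and Mcm2 had 1.45 ± 0.12. In Het, Mcm2 had 22.0, 22.9 and 18.8 in spermatocytes, against 7.13, 9.54 and 9.77 in testis (1.23 ± 0.12, adjusted p = 8.4e-06). Rfc5 was the gene lower in spermatocytes, at -0.58 ± 0.10 in KO and -0.52 ± 0.10 in Het, with 9.63 ± 0.23 in KO spermatocytes against 14.6 ± 0.98 in KO testis. The members that did not pass in either genotype were Orc4, Orc5, Orc6, Gins3, Rfc3, Rpa3 and Tyms. RPKM in spermatocytes was here set beside FPKM in testis, and that difference in unit cannot be told apart from the fraction.

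Beyond the 42 members, 42 further replication genes were examined. In P14 testis 0 rose and 0 fell, with log2 differences from -0.19 (Mcm8) to 0.16 (Chtf18). In KO P18 testis 6 rose and 5 fell, and in KO spermatocytes 11 rose and 6 fell, with list medians of 0.00 and 0.17. The shares over all genes were 5.83% higher and 17.2% lower in P18 testis, and 12.7% and 24.9% in spermatocytes. Among the larger rises in spermatocytes were Mcmbp (0.66 ± 0.09), which binds MCM proteins, and Recql4 (0.63 ± 0.11), a helicase needed for origin firing. The largest falls were Rnaseh2a, the catalytic subunit of RNase H2, at -2.35 ± 0.31, Chaf1b (-0.63 ± 0.18) and Chaf1a (-0.62 ± 0.12), both of the chromatin assembly factor that deposits histones behind the fork. In P18 testis the larger differences included Recql4 (0.56 ± 0.12) and Dck (0.40 ± 0.10) upward and Rnaseh2a (-1.13 ± 0.20), Chaf1a (-0.54 ± 0.12) and Rnaseh2c (-0.33 ± 0.08) downward. Rnaseh2a varied widely among Het spermatocytes (43.8 ± 21.5, SD), against 7.64 ± 1.24 in KO.

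Regulators of S phase entry were measured as a separate list of 31 genes. In KO spermatocytes 11 of 30 tested rose and 6 fell, where 12.7% of all genes were higher and 24.9% lower. Those named here were chosen after their values were seen. The genes that rose included the activators E2f1 (0.72 ± 0.15), E2f2 (0.63 ± 0.13) and E2f3 (0.84 ± 0.14), Ccnd1 (0.76 ± 0.12), the S phase cyclin Ccna2 (0.60 ± 0.12) and the inhibitor Cdkn1c (0.90 ± 0.16). Among those that fell were the CDK inhibitors Cdkn2c (-1.80 ± 0.21) and Cdkn2d (-1.23 ± 0.19), Cdk2 (-0.40 ± 0.12) and the meiotic cyclin Ccna1 (-2.90 ± 0.45). Rbl1 (-0.46 ± 0.11) and Tfdp1 (-0.40 ± 0.10) fell too. Other E2F genes were mixed. E2f5 rose (0.56 ± 0.08). E2f4 (-0.22 ± 0.10), E2f6 (0.57 ± 0.20), E2f7 (-0.11 ± 0.13) and E2f8 (-0.63 ± 0.24) did not pass the threshold. In P18 testis 9 of 31 rose and 4 fell (5.83% and 17.2% of all genes), with E2f1 at 0.55 ± 0.13 and E2f3 at 0.40 ± 0.08. Rbl1 (-0.56 ± 0.09) and Tfdp1 (-0.27 ± 0.05) were among those that fell there. In P14 testis 0 of 30 rose and 0 fell.

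Some markers of cell types that replicate, or no longer do, also differed between KO and Het. Over all genes, 12.7% were higher and 24.9% lower in KO spermatocytes, and 5.83% and 17.2% in KO P18 testis. In KO P14 testis the shares were 0.0113% and 0.153%. Of the 14 spermatogonial and preleptotene markers, 8 rose and 0 fell in KO spermatocytes, with log2 differences of 0.49 to 0.75 (Ccna2, Dmrt1, Dnmt3b, Kit, Rhox13, Sohlh1, Stra8 and Uchl1) and a list median of 0.58. In KO P18 testis 4 rose and 0 fell (list median 0.29), and in KO P14 testis 0 rose and 0 fell (0.14). Their summed level was 338 to 371 in KO and 261 to 310 in Het P18 testis. Ccna2 is also on the list of S phase regulators. Of 16 pachytene markers, 13 were tested in spermatocytes and all 13 fell in KO, with sums of 210 to 269 in KO and 1571 to 3157 in Het. In KO P18 testis 13 of 14 tested fell. In KO P14 testis, where none of the 42 genes passed, 2 of 9 tested pachytene markers fell (Crisp2 and Piwil1, at -2.57 to -2.33), with sums of 69 to 98.8 in KO and 138 to 185 in Het. Of 16 early meiotic prophase markers, 1 rose (Rec8) and 4 fell (Spo11, Syce1, Syce3 and Sycp2) in KO spermatocytes. Falls on this list in spermatocytes were close to the share over all genes. The early meiotic sums there were 1502 to 1768 in KO and 1618 to 1911 in Het. On the same list 1 rose (Prdm9) and 5 fell (Spo11, Stag3, Syce1, Syce3 and Sycp2) in KO P18 testis. There 5.83% of all genes were higher and 17.2% lower. In KO P18 testis, 5 of 16 Sertoli markers, 4 of 7 tested macrophage markers and 1 of 9 Leydig markers rose, and none of these lists had a member that fell. Het spermatocyte library 3 had the lowest summed MCM level (196) and the lowest sum of spermatogonial and preleptotene markers (376). The part of these cell type differences in the results for the 42 genes was not tested.

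**Figure D5:**
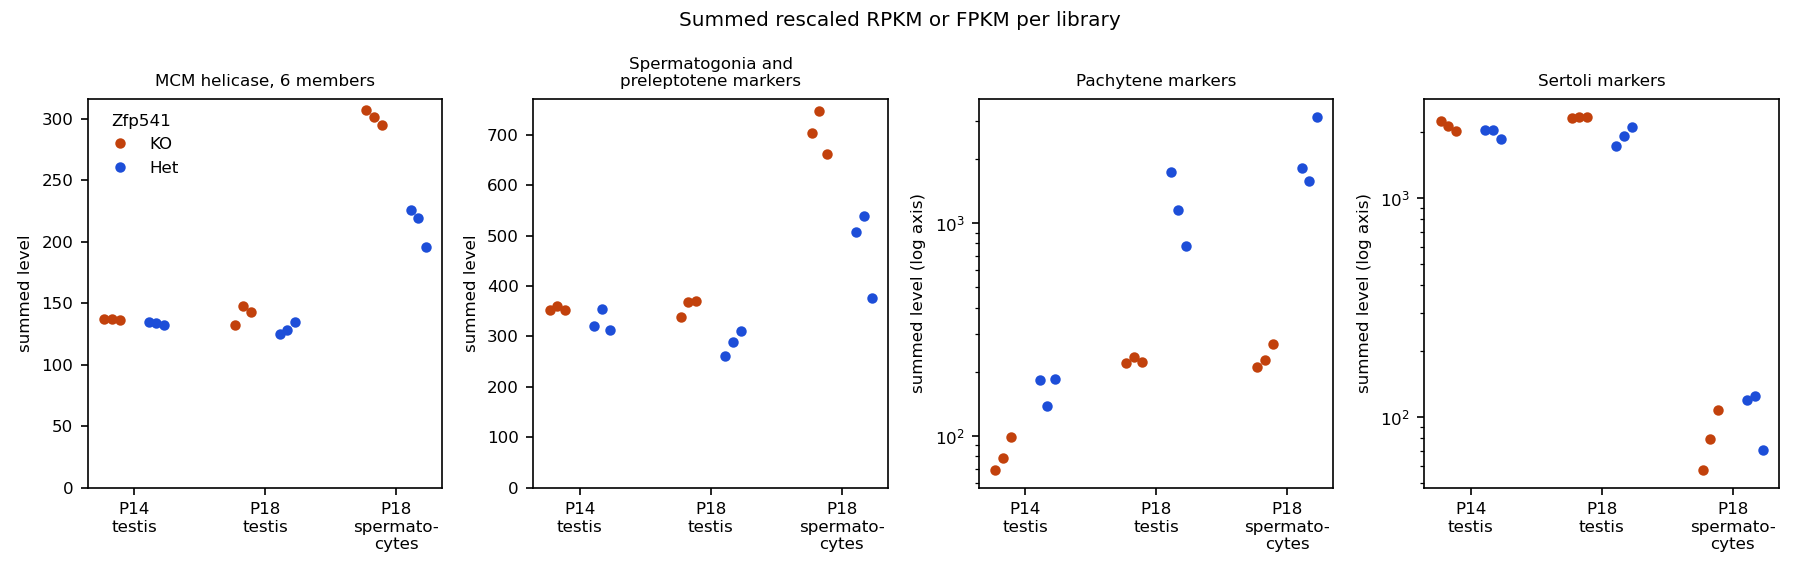
Summed levels per library of the 6 MCM subunits and of 3 marker lists (pachytene and Sertoli panels on a log axis), KO left of Het in each set; points are libraries. MCM subunits and spermatogonial and preleptotene markers are both highest in KO spermatocytes, while pachytene markers are far lower in KO than in Het at P18.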

How the data were processed

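RNA from 18 libraries was measured. The authors deposited RPKM per gene in the tables for P14 testicular cells and P18 spermatocytes, and FPKM per gene in those for P18 testicular cells. The submitters' processing notes list GRCm38 as the build and, with no role, featureCounts, STAR 2.6.1a, CASAVA 1.9 and edgeR 3.28.1. Per the labels' protocols, RNA was extracted with Trizol and libraries were made with NEBNext kits.

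Symbols on more than 1 row were dropped. Low values times merged exon length (GENCODE M21) came to whole reads within 0.05 for 94.39% to 99.332% of values, which gave the depths and the weights for TMM scaling. Library pairs within a group differed beyond sampling noise (chi-square per degree of freedom 2.228 to 45.87). Genes whose deposited value reached 1 in 3 libraries or more of a fit were tested, and all 42 members did so. limma 3.58.1 (trend, robust; R 4.3.3) was fitted to log2(value + 0.5), a scale that understates changes of low genes, with 6 libraries for each genotype comparison and 12 for age and fraction. P-values were adjusted by Benjamini-Hochberg over all genes tested. Errors of log2 differences are SE and those of levels SD (n = 3). P-values measure the spread between libraries, which may in part be technical. The fit was also run on simulated counts, with the same spread setting for every gene and no library that stood apart. That run cannot show how the fit handles libraries that do.

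The members and gene lists were chosen with earlier results of these data known. The text names all 42 members, with full statistics for those past the threshold in a KO comparison or an interaction and for the 3 highest and 3 lowest of each KO comparison. Values in every library are given for members past it in at least 2 KO comparisons or an interaction, and for further members past it in 1. Of the other replication genes, up to 3 higher and 3 lower are named. Alternatives covered the scaling, the value added before the log, the filter, voom, the replicate number as a block, 1 joint fit and leaving out each library. One gene that the naming rule picked from the further replication genes is not reported here.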

Additional observations from a re-analysis of the deposited data

Results flagged for a closer look

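Gins4, a subunit of the GINS complex, met the criterion for a difference between ages: its genotype difference in whole testis changed by -0.30 ± 0.07 between P14 and P18 (limma interaction, adjusted p = 0.0382). KO libraries were all above Het libraries at P14 (log2 difference 0.11) and all below them in P18 testis (-0.18) and in P18 spermatocytes (-0.29). None of these 3 genotype differences passed the threshold by itself, and the contrast between P14 testis and P18 spermatocytes was not tested. The adjusted p of the interaction ran from 0.0359 to 0.326 over the alternatives.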

How the results depend on the processing

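All 10 members called in P18 testis and all 20 called in spermatocytes kept their direction under every alternative run, and P14 testis gave 0 calls under each. Counts of calls moved more. In P18 testis the members higher, 7 in the report, numbered 14 on the values as deposited, which moved the median of all genes to 0.12. They numbered 14 with voom and 12 in 1 fit over 18 libraries. With no filter and with the replicate block they numbered 3 each, and the block called 1 lower. Over all genes the higher, 1096 in the report, numbered 2473, 1874, 1020, 375 and 478 in the same order. For P18 minus P14 in Het, 1 fit over 18 libraries gave 5 members higher and the values as deposited 7 lower. In KO the higher numbered 5 with median-of-ratios scaling, 21 as deposited and 1 in 1 fit over 18 libraries, and the lower 6 with median-of-ratios scaling and 0 as deposited. On the values as deposited, which moved the median of all genes to 0.30 in KO, 7 genes lower with age there had differences above 0 that stayed below that median: Orc6 (0.16), Cdc6 (0.08), Mcm3 (0.13), Lig1 (0.06), Rpa2 (0.10), Rrm1 (0.04) and Rrm2 (0.10). For spermatocytes minus testis in Het, 1 fit over 18 libraries gave 2 lower. The age interaction had 2 higher as deposited, and 0 lower as deposited, with no filter, with voom, with the replicate block and in 1 fit over 18 libraries. The fraction interaction had 7 higher in 1 fit over 18 libraries, where the median over all genes was 0.08, against -0.10 in the report. The cause of the other changes was not tested.

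With 1 library left out, P18 testis had 0 to 7 members higher and 0 to 5 lower, and spermatocytes 9 to 14 and 2 to 5. Over all genes the same fits called 78 to 1286 higher and 849 to 3130 lower in P18 testis. In spermatocytes they called 662 to 1521 genes higher and 2357 to 3764 lower. P18 minus P14 had 4 to 8 members higher and 18 to 23 lower in Het, and 1 to 5 and 6 to 15 in KO. All genes called there numbered 3707 to 4761 higher and 4378 to 5250 lower in Het. In KO they numbered 2196 to 3141 and 3270 to 4146. Spermatocytes minus testis had 33 to 35 members higher and 1 to 2 lower in Het, and 32 to 38 and 1 to 1 in KO. All genes called there numbered 4677 to 5555 higher and 5601 to 6350 lower in Het. In KO they numbered 4025 to 5885 and 6703 to 8122. The age interaction had 0 to 1 members higher and 0 to 4 lower, and the fraction interaction 0 and 0. All genes called numbered 9 to 225 higher and 97 to 1489 lower for the age interaction. For the fraction interaction they numbered 0 to 22 and 20 to 335.

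Whether replicate numbers pair the KO and Het libraries cannot be told from these values. Deviations of KO and Het libraries with the same number correlated at 0.0845, 0.0841 and 0.104 at P14, at 0.0251, -0.0129 and -0.0278 in P18 testis, and at 0.24, 0.0542 and 0.0926 in spermatocytes. The replicate block left 17 higher and 3 lower in spermatocytes and 0 and 0 at P14, and it could not be estimated for age or fraction differences. At P14 and in spermatocytes each KO library correlated best with the Het library of its own number. This did not hold for KO libraries 2 and 3 in P18 testis, and its cause was not tested. Depth limits low genes most: the fewest reads behind a member's value were 103, for Tyms.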
